A study of Canis lupus familiaris with 12 samples.

Results

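The mitochondrially encoded genes are the 37 genes that the deposited tables place on chromosome MT, of 29822 genes in all. They are the 13 protein-coding genes, the 2 ribosomal RNA (rRNA) genes and the 22 transfer RNA (tRNA) genes of the dog mitochondrial genome. The members were taken by chromosome and not by level, and each is annotated as a single exon. The 13 protein-coding genes carry a symbol, and the other 24 carry only an Ensembl identifier. After a filter on low counts 16 members were tested: the 13 protein-coding genes, both rRNA genes and 1 tRNA gene.

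The series sequenced poly(A) RNA of canine peripheral blood mononuclear cells (PBMCs), isolated on a density gradient from healthy specific-pathogen-free male beagles kept as blood donors. The cells were cultured for 24 h with concanavalin A (ConA, 0.5 µg/ml) and 5-aminolevulinic acid (ALA, 1.0 mM) together, with ConA alone, with ALA alone, or with neither, here called untreated. ConA is a plant lectin that activates T cells, and ALA is the precursor from which cells build heme. There were 12 libraries, 3 in each of the 4 groups, and the titles number them 1 to 3. Nothing in the labels ties a number to one animal, so a p-value here reflects how much these libraries vary, and that variation may be technical.

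Mitochondria keep a small circular genome whose 13 messenger RNAs (mRNAs) encode subunits of the respiratory chain and of ATP synthase, while the remaining subunits come from the nucleus. In human cells both strands are transcribed into long RNAs, which are cut into mRNAs, rRNAs and tRNAs, largely at the tRNAs that punctuate the genome. Lymphocytes that are activated grow and build mitochondria, and heme, whose first building block is ALA, is a cofactor of complexes III and IV.

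Exon reads per library ranged from 13390692 to 21517099, and between 635541 and 4016212 of them fell on mitochondrial genes. For each mitochondrial mRNA and rRNA gene, unique exon reads were 100% of the exon reads to 3 significant digits. Libraries of number 1 stood apart from the rest in measures outside the mitochondrial genes too. Reads from introns made up 29.9 to 34.9% of nuclear gene reads in number 1 and 38.4 to 46.1% in numbers 2 and 3. Of nuclear exon reads, 54.3 to 56.8% crossed a junction in number 1 and 46.2 to 49.7% in numbers 2 and 3. Blood cell markers also differed by treatment. The summed level of 8 neutrophil markers was 282 to 398 CPM (counts scaled to a common library size, here TMM-scaled) with ConA and ALA, 125 to 222 CPM with ConA, 823 to 1038 CPM with ALA and 680 to 1010 CPM in untreated cells. The 7 monocyte markers measured summed to 176 to 447 CPM with ConA and ALA, 151 to 372 CPM with ConA, 320 to 1411 CPM with ALA and 463 to 776 CPM in untreated cells. The 8 T cell markers measured summed to 605 to 920 CPM with ConA and ALA, 531 to 881 CPM with ConA, 733 to 964 CPM with ALA and 800 to 1252 CPM in untreated cells. Of these, CD28 was higher with ConA, at 66.7, 31.7 and 37.5 CPM against 20.5, 9.63 and 16.5 CPM in untreated cells. The other T cell markers were lower with ConA in 3 of 3 numbers. Summed NK cell, platelet and red cell markers were also lower with ConA than in untreated cells in 3 of 3 numbers, and no marker was at 0 in all libraries. The 5 dendritic cell markers measured went both ways. BATF3 had 115, 356 and 264 CPM with ConA and 5.72, 18.5 and 28.8 CPM in untreated cells, while FLT3 and CD1C were lower with ConA in 3 of 3 numbers.

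Mitochondrial genes took 3.59 to 23.3% of exon reads, and the libraries differed more by number than by treatment. With ConA and ALA the share was 4.82, 17.9 and 16.2% in libraries 1, 2 and 3. With ConA alone it was 4.48, 23.3 and 17.2%. With ALA alone it was 3.59, 11.8 and 16.5%, and in untreated cells it was 3.98, 12.7 and 13.1%. All 4 libraries of number 1 lay at or under 4.82% and all 8 of numbers 2 and 3 at or above 11.8%, so every treatment group overlapped every other. In bulk libraries fewer cells of a type and less RNA per cell cannot be told apart. By number the share averaged 4.22 ± 0.543% in number 1, 16.5 ± 5.31% in number 2 and 15.7 ± 1.82% in number 3 (SD, n = 4 treatments each).

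The difference between numbers reached every mitochondrial gene tested. In edgeR's quasi-likelihood test of the numbers, with treatment in the model, all 16 were called at a Benjamini-Hochberg adjusted p under 0.05, against 48.5% of the 13358 genes tested. The split of the mitochondrial share by number was known before this test, so the test is no independent evidence for it. Libraries of a number also share whatever the number stands for. The smallest adjusted p-values were those of the 2 rRNA genes, which carry no name and are told apart here by length, at 1.2e-08 for the gene of 954 bases and 1.7e-07 for that of 1580 bases, and of MT-CO1 at 1e-06. The 13 mRNAs were 4.98 to 6.64 times as high in number 2 and 4.39 to 8.83 times as high in number 3 as in number 1. For the 2 rRNA genes these folds were 8.10 to 8.58 and 7.44 to 7.94. Without the libraries of number 1 none of the 16 was called, but no share of all genes is given beside that count. The markers moved with the numbers as well: 8 B cell markers summed to 1424 to 1826 CPM in number 1, 2480 to 2705 CPM in number 2 and 2025 to 2372 CPM in number 3. The 5 red cell markers measured summed to 30.6 to 133 CPM in number 1, 175 to 346 CPM in number 2 and 152 to 413 CPM in number 3. T cell and monocyte sums instead reached their highest values in number 1. For T cells they were 881 to 1252, 623 to 1015 and 531 to 800 CPM in numbers 1, 2 and 3. Monocyte sums were 372 to 1411, 151 to 463 and 169 to 471 CPM in the same order. The part that these cells, and the intron and junction shares above, have in the difference between numbers was not tested.

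**Figure D1:**
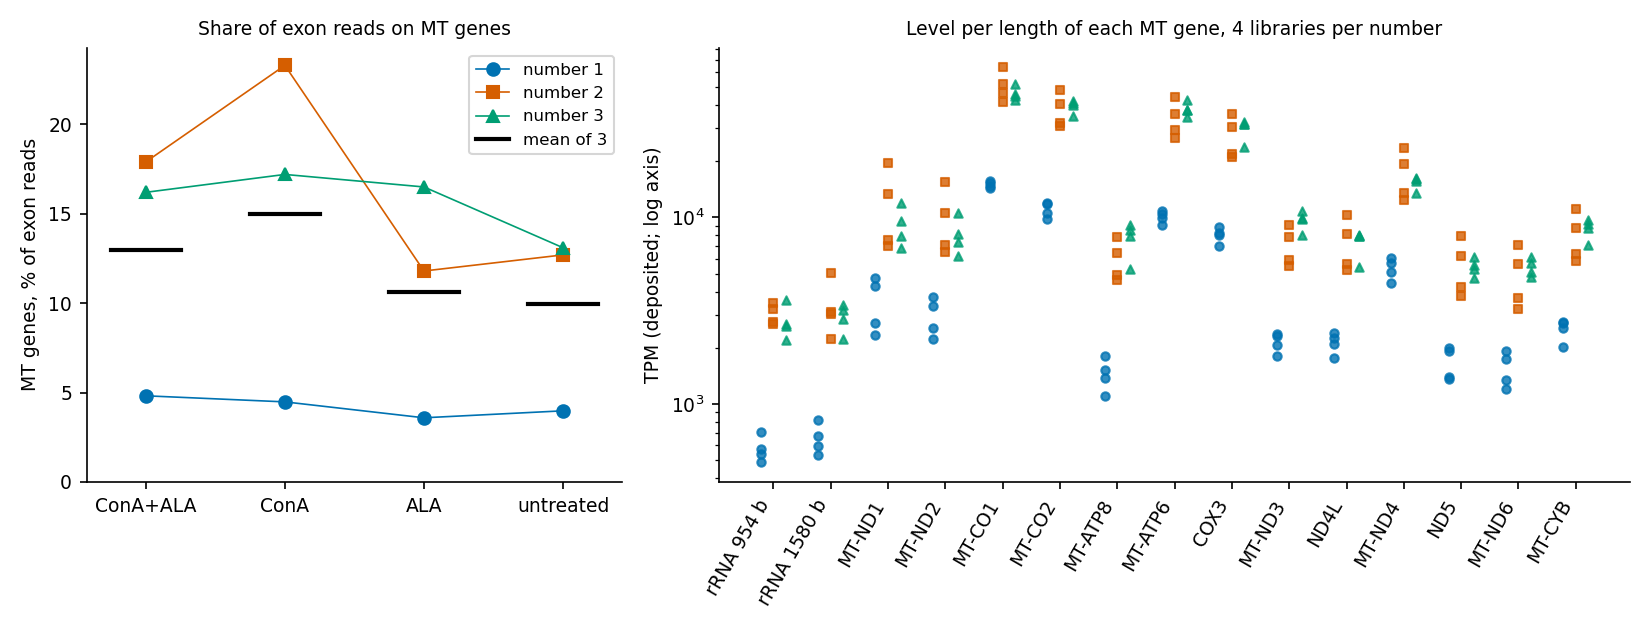
Left, share of exon reads on mitochondrial genes in percent, 1 point per library, joined by number, with the mean of each treatment group as a bar. Right, deposited TPM (log axis) of the 2 rRNA and 13 mRNA genes in map order, with 4 libraries per number. Number 1 lies lowest for each gene plotted.

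Levels between genes were compared in TPM, which divide reads by gene length and scale each library to the same sum. The 3 mitochondrially encoded core subunits of complex IV (cytochrome c oxidase), which passes electrons to oxygen, were among the highest. MT-CO1 (MT:5349-6893, build CanFam3.1, as for all positions) ranked first of the 15 mRNA and rRNA genes in all 12 libraries, at 14284 to 63547 TPM, and between rank 1 and rank 3 among all genes. MT-CO2 (MT:7034-7717) had 9841 to 48058 TPM and COX3 (MT:8644-9427) 6984 to 35806 TPM. MT-ATP6 (MT:7964-8644), the membrane subunit of ATP synthase through which protons pass, ranked 2 or 3 at 9073 to 44386 TPM. MT-ATP8 (MT:7803-8006), its small partner subunit, had 1103 to 9126 TPM. The order of the 5 highest, MT-CO1 first, MT-CO2 and MT-ATP6 next, then COX3 and MT-ND4, held in each library, and only MT-CO2 and MT-ATP6 changed places.

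The 7 subunits of complex I (NADH dehydrogenase), which feeds electrons into the chain, spread widely. MT-ND4 (MT:10201-11578) was the highest at 4444 to 23649 TPM. MT-ND1 (MT:2747-3703) had 2346 to 19608 TPM and MT-ND2 (MT:3914-4957) 2239 to 15496 TPM. MT-ND3 (MT:9496-9842) had 1805 to 10801 TPM and ND4L (MT:9911-10207) 1760 to 10235 TPM. ND5 (MT:11778-13598) and MT-ND6 (MT:13582-14109), at 1352 to 7969 TPM and 1203 to 7075 TPM, had the lowest medians of the 7 in every number. MT-ND6 is the only protein-coding gene on the reverse strand. It was not stated whether counting used strand, so reads of opposite strands at this locus cannot be told apart. MT-CYB (MT:14183-15322), the cytochrome b of complex III, had 2025 to 11107 TPM.

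The rRNA genes form the RNA core of the mitochondrial ribosome. The 954-base gene ENSCAFG00000022709 (MT:70-1023) had 487 to 3584 TPM and the 1580-base gene ENSCAFG00000022711 (MT:1091-2670) had 531 to 5043 TPM. They held ranks 13 to 15 of the 15, and the library preparation selected poly(A) RNA, so these are levels of the rRNA that this selection kept.

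Reads on tRNA genes were close to absent. The 22 genes are 60 to 75 bases long, no longer than the 75-base reads, and together held 292 exon reads over the 12 libraries, 8 to 51 in each. Of the 22, 7 had no exon read in any library, which allows up to 0.0149 CPM of exon reads over the series (3 reads, counting error only). The 4 most abundant held 242 of the 292 reads, or 82.9%. The first, ENSCAFG00000022744 (MT:15392-15457, reverse strand), had 1, 10 and 8 reads in libraries 1, 2 and 3 with ConA and ALA, 4, 11 and 16 with ConA, 3, 1 and 20 with ALA, and 1, 0 and 26 in untreated cells. Its groups overlapped, and its reads were highest in number 3 except with ConA and ALA, where number 2 was highest. ENSCAFG00000022724 (MT:6891-6961, reverse strand) had 2 to 11 reads, ENSCAFG00000022733 (MT:9842-9910) 0 to 10 and ENSCAFG00000022719 (MT:5037-5105, reverse strand) 0 to 3 per library. The 8 tRNA genes of the reverse strand held 226 reads, or 77.4%, and the 14 of the forward strand the rest.

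With ConA, all 15 mRNA and rRNA genes were higher than in untreated cells within each of the 3 numbers on TMM-scaled CPM, as were 10 of the 15 with no TMM scaling and 8 in deposited TPM. The 5 that went both ways with no TMM scaling were MT-CO1, MT-CO2, MT-ATP8, MT-ND3 and the 954-base rRNA gene. The largest fold changes were those of MT-ND1, MT-ND2 and the 1580-base rRNA gene, which lie next to each other apart from tRNA genes, between MT:1091 and MT:4957.

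MT-ND1, a core subunit of the membrane arm of complex I, had 2419, 19485 and 9630 CPM in libraries 1, 2 and 3 with ConA, against 1103, 4690 and 4626 CPM in untreated cells. Each ConA library was at least 2.08 times its untreated partner, but ConA library 1 lay below untreated libraries 2 and 3, so the groups overlapped. MT-ND2, another membrane-arm subunit, had 2082, 16799 and 9255 CPM with ConA and 1132, 4854 and 4566 CPM in untreated cells. The 1580-base rRNA gene had 689, 8274 and 4527 CPM with ConA and 356, 2299 and 2477 CPM in untreated cells. For both, the groups again overlapped through number 1, with folds within numbers of 1.83 to 3.60.

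At the other end stood MT-CO1 and the 954-base rRNA gene. MT-CO1 had 11752, 101948 and 60038 CPM with ConA and 10252, 46479 and 46395 CPM in untreated cells. The 954-base rRNA gene had 247, 3201 and 2095 CPM with ConA and 220, 1667 and 1485 CPM in untreated cells. In number 1 these 2 genes differed little, by 1.15-fold and 1.13-fold, and in number 2 by 2.19-fold and 1.92-fold.

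In the model of 4 group means, which counts the differences between numbers as spread, none of the 16 genes tested was called for ConA against untreated cells, while 18.5% of all genes were. On the log2 scale edgeR's quasi-likelihood test put MT-ND1 at 1.60 ± 0.86 (SE, adjusted p = 0.22), MT-ND2 1.41 ± 0.85 (adjusted p = 0.28) and the 1580-base rRNA gene 1.39 ± 1.06 (adjusted p = 0.41). No mitochondrial gene reached an unadjusted p under 0.05 with edgeR or limma-voom, and 1 did with DESeq2, with none called. Without the libraries of number 1 this model called 11 of the 16, but no share of all genes is given beside that count. The 13 mRNAs lay between 0.75 and 1.60, with a median of 1.05, while the median of all genes tested was -0.05. Calls over all genes split into 1326 higher and 1145 lower, or 558 higher and 941 lower with no TMM scaling.

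Libraries of the same number varied together, and with the number as a block 15 of the 16 rose, against 21.3% of all genes called higher. The exception was the tRNA gene ENSCAFG00000022744, at 1.25 ± 1.10 (edgeR adjusted p = 0.39). The rise was 1.45 ± 0.23 for MT-ND1 (adjusted p = 0.00036), 1.26 ± 0.20 for MT-ND2 (adjusted p = 0.00028) and 1.25 ± 0.19 for the 1580-base rRNA gene (adjusted p = 0.00015). The mRNAs ran from 0.60 for MT-CO1 to 1.45 for MT-ND1, with a median of 0.86, against -0.06 over all genes. The 954-base rRNA gene rose by 0.56 ± 0.16 on the log2 scale (adjusted p = 0.013).

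These calls were not equally firm. With no TMM scaling the median of all genes moved to -0.33 and the blocked model called 9 of the 16, against 13.2% of all genes called higher. Over all genes 1769 were then higher and 4031 lower, against 2839 higher and 2837 lower with TMM. The 9 were MT-ND1, MT-ND2, COX3, ND4L, MT-ND4, ND5, MT-ND6, MT-CYB and the 1580-base rRNA gene. Of the 12 libraries left out in turn, untreated 2 left 6 calls, ConA 2 and untreated 3 left 9 each, and the others 13 to 15. Without number 2 as a whole, 8 remained called. MT-ND1, MT-ND2, ND5, MT-ND6, MT-CYB and the 1580-base rRNA gene were called in each of these 15 fits, and the other 9 called genes lost their call in at least 1. No share of all genes is given beside the counts of these fits.

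**Figure D2:**
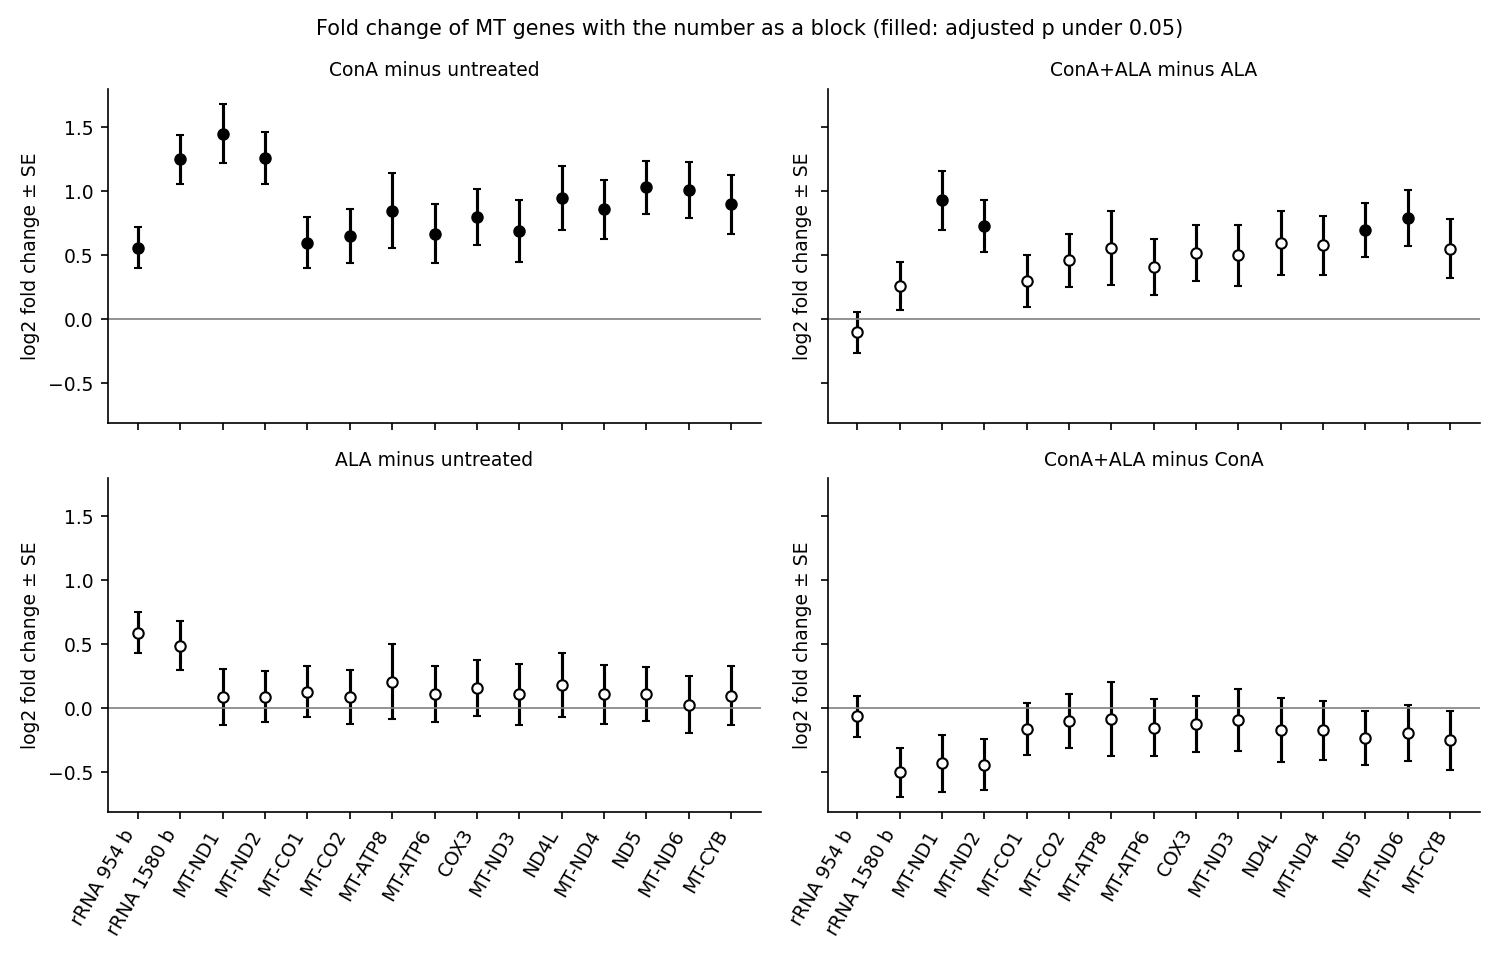
Log2 fold change ± SE of the 2 rRNA and 13 mRNA genes, in map order, in 4 comparisons from the model with the number as a block (12 libraries). Filled points have an edgeR adjusted p under 0.05: 15 for ConA minus untreated (9 with no TMM scaling), 4 for ConA+ALA minus ALA and none in the 2 comparisons of ALA.

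The make-up of the mitochondrial mRNA reads needs no scaling between libraries, and it differed with ConA in every number. Shares sum to 100%, so a rise of one gene lowers others, and they are described here without a test. MT-ND1 made up 6.68, 6.35 and 5.04% of mitochondrial mRNA reads with ConA and 3.94, 3.89 and 3.49% in untreated cells. MT-ND2 made up 5.75, 5.47 and 4.85% with ConA and 4.04, 4.02 and 3.44% in untreated cells. Neither pair of groups overlapped, number 1 included. MT-CO1 made up 32.5, 33.2 and 31.4% with ConA and 36.6, 38.5 and 35.0% in untreated cells, also without overlap. The same held for ND5, at 5.18, 4.91 and 4.91% with ConA and 3.86, 4.15 and 4.59% in untreated cells. ND4L did not overlap either, at 0.986, 1.03 and 1.05% with ConA and 0.949, 0.904 and 0.858% in untreated cells. For the rest of the 13 mRNAs the groups overlapped.

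Set against MT-CO1 directly, there were 20.6, 19.1 and 16 MT-ND1 reads per 100 MT-CO1 reads with ConA, against 10.8, 10.1 and 9.97 in untreated cells. The difference within numbers averaged 8.30 ± 1.98 reads (SD, n = 3). For MT-ND2 there were 17.7, 16.5 and 15.4 reads per 100 MT-CO1 reads with ConA and 11, 10.4 and 9.84 in untreated cells, a mean difference of 6.09 ± 0.551. Both ratios were thus higher in each ConA library than in any untreated library.

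On the log2 scale the share with ConA over that in untreated cells averaged 0.67 ± 0.12 for MT-ND1 and 0.48 ± 0.03 for MT-ND2 (SD, n = 3 numbers). The next genes were ND5 at 0.25 ± 0.16, MT-ND6 at 0.23 ± 0.12 and ND4L at 0.18 ± 0.12, all of complex I and all higher in 3 of 3 numbers. MT-CYB, at 0.13 ± 0.06, was also higher in 3 of 3. The share was lower in 3 of 3 for MT-CO1 (-0.18 ± 0.03), MT-CO2 (-0.12 ± 0.08) and MT-ATP6 (-0.11 ± 0.04). COX3, MT-ND4, MT-ND3 and MT-ATP8 went both ways between numbers.

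By complex, the 7 complex I genes together took 32.6, 31.1 and 28.5% of mitochondrial mRNA reads with ConA and 25.7, 25.2 and 25% in untreated cells. The 3 complex IV genes took 52.4, 53.8 and 54.6% with ConA and 58.7, 59.6 and 57.5% in untreated cells. For each the groups did not overlap, with mean differences of 5.45 ± 1.79 and -5.01 ± 1.77 percentage points. MT-CYB of complex III took 4.60, 4.28 and 4.89% with ConA and 4.39, 3.90 and 4.30% in untreated cells, where the groups overlapped. The part of blood cell make-up in these shares was not tested.

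**Figure D3:**
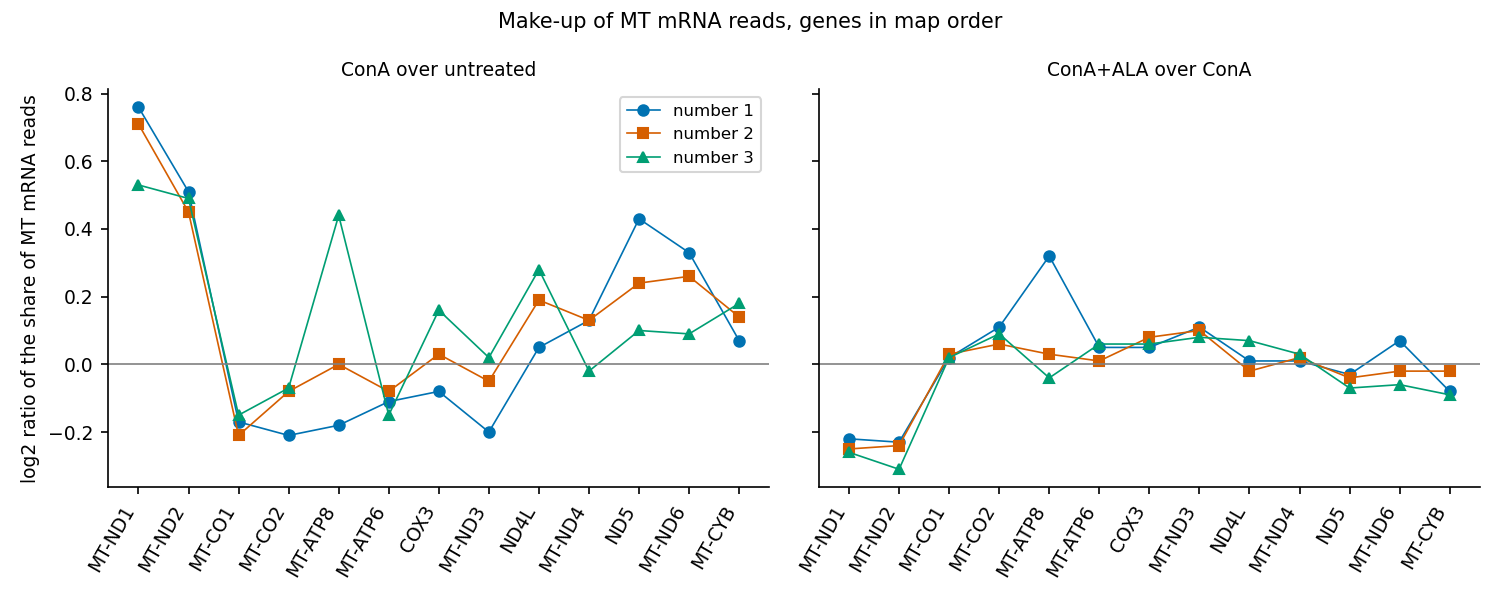
Log2 ratio of each gene's share of mitochondrial mRNA reads, 1 line per number, genes in map order, for ConA over untreated (left) and ConA+ALA over ConA (right). MT-ND1 and MT-ND2 lie highest on average on the left, at 0.67 and 0.48, and lowest on the right, at -0.24 and -0.26.

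Adding ALA to ConA-treated cells called no mitochondrial gene. In the model of 4 group means 0% of all genes were called, with 445 of the 13358 genes at an unadjusted p under 0.05, none of them mitochondrial. DESeq2 called 49 genes and limma-voom none, again with no mitochondrial gene. All 16 fold changes were below 0. On the log2 scale MT-ND2 and MT-ND1 stood at -0.57 ± 0.84 each and the 1580-base rRNA gene at -0.63 ± 1.04 (edgeR adjusted p = 1 for all). Without ConA library 2 these 3 turned to 0.15, 0.24 and 0.16 in this model, with number 2 then missing from the ConA group only. With the number as a block and ConA library 2 left out, MT-ND2 stayed below 0 at -0.12 and MT-ND1 at -0.08. With the block, 0.554% of all genes were called and again no mitochondrial gene, 2 of them having an unadjusted p under 0.05. They were the 1580-base rRNA gene at -0.50 ± 0.19 (adjusted p = 0.37) and MT-ND2 at -0.44 ± 0.20 (adjusted p = 0.50).

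Within numbers these 3 genes were lower with ALA each time. MT-ND1 had 2257, 10904 and 8124 CPM with ConA and ALA, against 2419, 19485 and 9630 CPM with ConA. MT-ND2 had 1929, 9454 and 7539 CPM with ConA and ALA and 2082, 16799 and 9255 CPM with ConA. The 1580-base rRNA gene had 586, 4129 and 4002 CPM with ConA and ALA and 689, 8274 and 4527 CPM with ConA. The groups overlapped, and number 2 showed the largest difference. The 12 other mRNA and rRNA genes were lower with ALA in number 2, higher in number 1 and mixed in number 3.

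The make-up again separated MT-ND1 and MT-ND2 from the other mRNAs. MT-ND1 took 5.73, 5.35 and 4.21% of mitochondrial mRNA reads with ConA and ALA, against 6.68, 6.35 and 5.04% with ConA. MT-ND2 took 4.90, 4.64 and 3.90% with ConA and ALA and 5.75, 5.47 and 4.85% with ConA. Across numbers the groups overlapped for both shares. The log2 ratios of these shares were -0.24 ± 0.02 for MT-ND1 and -0.26 ± 0.05 for MT-ND2 (SD, n = 3 numbers). The other 11 mRNAs had mean ratios of -0.06 to 0.10. Per 100 MT-CO1 reads there were 17.5, 15.8 and 13.2 MT-ND1 reads with ConA and ALA and 20.6, 19.1 and 16 with ConA, a mean difference of -3.08 ± 0.247. The 2 groups overlapped across numbers for MT-ND1 but not for MT-ND2, at 14.9, 13.7 and 12.3 reads with ConA and ALA and 17.7, 16.5 and 15.4 with ConA. The comparison of ConA with untreated cells and this one share the ConA libraries. The summed markers of T cells, B cells, NK cells, monocytes, neutrophils, platelets and red cells were higher with ConA and ALA than with ConA in 3 of 3 numbers, and those of dendritic cells lower in 3 of 3. Within the dendritic cell sum BATF3 had 115, 202 and 207 CPM with ConA and ALA and 115, 356 and 264 CPM with ConA. CD1C was higher with ConA and ALA in 3 of 3 numbers, at 9.67, 6.95 and 7.26 against 4.54, 5.71 and 5.9 CPM. FLT3 and IRF8 went both ways. Platelet markers, for one, summed to 26.6, 105 and 27.8 CPM with ConA and ALA and 7.09, 23.7 and 25.7 CPM with ConA. Among them PPBP had 19.7, 95 and 15.4 against 2.58, 13 and 15 CPM, while ITGB3 and TUBB1 went both ways. Members of other sums did not all follow their sum either. The monocyte marker MS4A7 was lower with ConA and ALA in 3 of 3 numbers, at 121, 69.6 and 70.2 against 127, 82 and 102 CPM. The T cell markers CD3G, CD4, CD8A and CD28 went both ways. The part of the blood cell markers in the shares was not tested.

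In cells without ConA no mitochondrial gene was called for ALA either. The model of 4 group means called 0% of all genes, with 155 genes at an unadjusted p under 0.05 and none of them mitochondrial. DESeq2 called 4 genes and limma-voom none, no mitochondrial gene among them. On the log2 scale the 954-base and 1580-base rRNA genes stood at 0.64 ± 1.06 and 0.60 ± 1.04, and MT-ATP8 0.53 ± 1.06 (edgeR adjusted p = 1 for all). Without ALA library 3 the value of MT-ATP8 turned to -0.49. With the block 0.0449% of all genes were called. The rRNA genes then stood at 0.59 ± 0.16 (unadjusted p = 0.0025, adjusted p = 0.44) and 0.49 ± 0.19 (unadjusted p = 0.022, adjusted p = 0.73), while the 13 mRNAs lay between 0.03 and 0.21.

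Of the 15 mRNA and rRNA genes, the 2 rRNA genes were those higher with ALA in each number, on each of the scalings computed. The 954-base gene had 300, 2208 and 2757 CPM with ALA and 220, 1667 and 1485 CPM in untreated cells. The 1580-base gene had 415, 3267 and 4075 CPM with ALA and 356, 2299 and 2477 CPM in untreated cells. The groups overlapped through number 1. The intron share of nuclear gene reads was also higher with ALA in each number, by 1.38, 3.44 and 4.24 percentage points. The junction share of nuclear exon reads differed by -1.95, -0.446 and -2.75 percentage points. The part of these shifts in the rRNA levels was not tested. The mRNAs were lower with ALA in number 2, lower in number 1 apart from ND5 at 1.01-fold, and higher in number 3. MT-ND1, as an example, had 996, 4453 and 6161 CPM with ALA and 1103, 4690 and 4626 CPM in untreated cells. The make-up of the mRNAs had mean log2 ratios of -0.09 to 0.08 over the 13 genes, and MT-ND1 reads per 100 MT-CO1 reads were 9.93, 10.4 and 9.58 with ALA and 10.8, 10.1 and 9.97 in untreated cells.

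For ConA in the presence of ALA, none of the 16 was called in the model of 4 group means, against 8.12% of all genes, and none had an unadjusted p under 0.05 with edgeR, DESeq2 or limma-voom. MT-ND1 had 0.87 ± 0.84 (edgeR adjusted p = 0.60), MT-ND2 0.69 ± 0.84 (adjusted p = 0.70) and MT-ND6 0.68 ± 0.90 (adjusted p = 0.73). With the block 4 of the 16 rose, against 15.8% of all genes called higher, and the 4 were complex I subunits. MT-ND1 rose by 0.93 ± 0.23 (adjusted p = 0.0092), MT-ND2 by 0.73 ± 0.20 (adjusted p = 0.015), MT-ND6 by 0.79 ± 0.22 (adjusted p = 0.018) and ND5 by 0.70 ± 0.21 (adjusted p = 0.025). The 4 of 16 are close to that background. With no TMM scaling the same 4 were called, and over all genes 1427 were higher and 2544 lower, against 2109 higher and 1913 lower with TMM. The count depended on single libraries: without ALA 1, or without number 1, none was called, and without ALA 3 there were 12. No share of all genes is given beside these counts.

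In these pairs MT-ND1 had 2257, 10904 and 8124 CPM with ConA and ALA and 996, 4453 and 6161 CPM with ALA. MT-ND6 had 557, 2544 and 2660 CPM with ConA and ALA and 282, 1131 and 2180 CPM with ALA. Both were higher in 3 of 3 numbers, with overlapping groups. So were 10 of the 15 genes on TMM-scaled CPM, 8 with no TMM scaling and 5 in deposited TPM, MT-ND1 and MT-ND6 among them each time. There were 17.5, 15.8 and 13.2 MT-ND1 reads per 100 MT-CO1 reads with ConA and ALA and 9.93, 10.4 and 9.58 with ALA, without overlap. The interaction of ConA and ALA called 0% of all genes in either model, with 222 genes at an unadjusted p under 0.05 without the block, none of them mitochondrial, and 1004 with it, 2 of them mitochondrial. DESeq2 called 4 genes for it and limma-voom none, no mitochondrial gene among them. Without the block the 1580-base rRNA gene stood at -1.23 ± 1.48, MT-ND1 at -0.72 ± 1.19 and MT-ND2 at -0.73 ± 1.18 (edgeR adjusted p = 1 for all). With it the 1580-base rRNA gene stood at -0.99 ± 0.27 (adjusted p = 0.46).

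The balance of the 2 rRNA genes differed with ConA. There were 2.79, 2.58 and 2.16 reads of the 1580-base gene for each read of the 954-base gene with ConA, against 1.62, 1.38 and 1.67 in untreated cells. With ConA and ALA the ratio was 1.96, 1.84 and 1.77, and with ALA alone it was 1.38, 1.48 and 1.48. The ConA libraries lay above all others and those with ConA and ALA above those with ALA or neither, in all 3 numbers and with no overlap. The mean difference within numbers was 0.954 ± 0.400 for ConA minus untreated, -0.656 ± 0.231 for ConA+ALA minus ConA and 0.407 ± 0.147 for ConA+ALA minus ALA (SD, n = 3). For ALA minus untreated it was -0.109 ± 0.183, with both directions among the numbers.

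Relative to mRNA reads, the sum of the 2 rRNA genes was higher with either agent alone than with both. There were 2.25, 3.13 and 3.24 rRNA reads per 100 mitochondrial mRNA reads with ConA and ALA, 2.59, 3.74 and 3.47 with ConA, 2.75, 4.83 and 3.66 with ALA, and 2.06, 3.29 and 2.99 in untreated cells. ConA alone and ALA alone were each above untreated cells in 3 of 3 numbers, and the combination was below each of them in 3 of 3. Per 1000 mRNA reads the 954-base gene had 7.62, 11 and 11.7 reads with ConA and ALA and 6.83, 10.4 and 11 with ConA. It had 11.5, 19.5 and 14.8 with ALA and 7.84, 13.8 and 11.2 in untreated cells, so it was higher with ALA in 3 of 3 numbers in both states. The 1580-base gene had 14.9, 20.3 and 20.7 reads with ConA and ALA, 19.0, 27.0 and 23.7 with ConA, 16, 28.8 and 21.8 with ALA, and 12.7, 19.0 and 18.7 in untreated cells. For the sum and for each gene, the groups overlapped in each of the 4 comparisons of treatments.

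**Figure D4:**
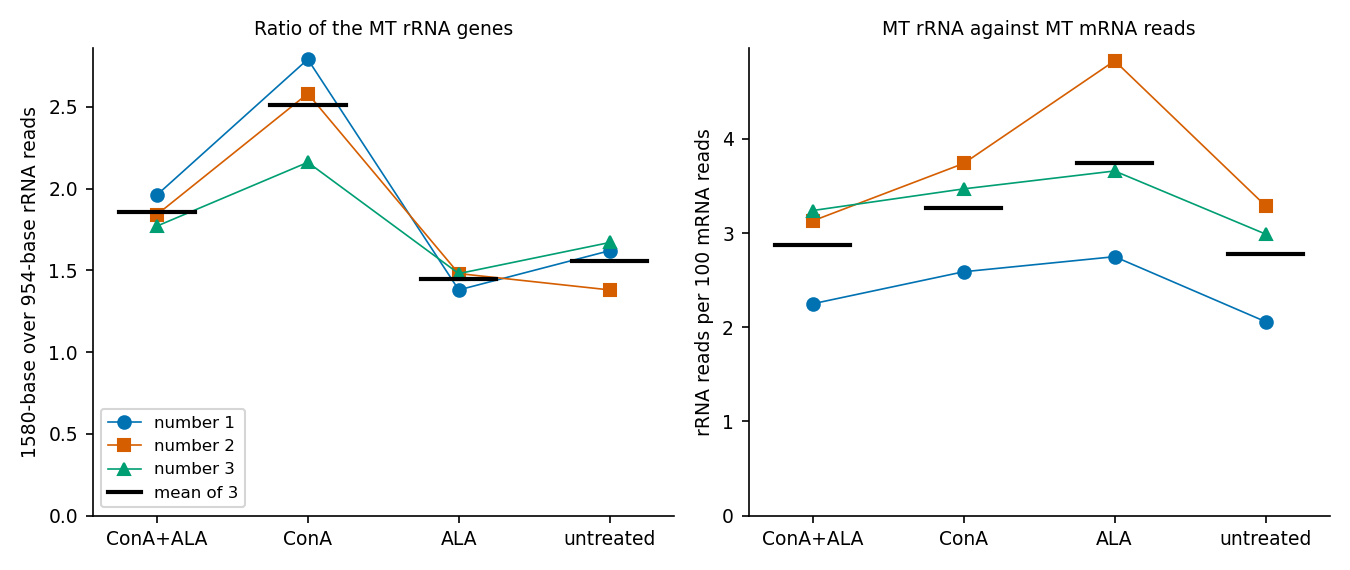
Left, reads of the 1580-base rRNA gene for each read of the 954-base rRNA gene, and right, rRNA reads per 100 mitochondrial mRNA reads, by treatment, 1 point per library joined by number, with group means as bars. The ratio is highest with ConA, at 2.16 to 2.79, and 1.77 to 1.96 with ConA and ALA.

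Mitochondrial genes abut or overlap, and the tables count part of their gene reads as intron reads although each gene is a single exon. The sources used here do not define that column, and the reads may be ones that reach past the annotated ends of a gene, which was not tested. As a percentage of a gene's reads they were highest for 3 genes that overlap another mRNA gene. MT-ATP8 shares 43 bases with MT-ATP6 and had 32.9 to 47.1%. ND4L shares 7 bases with MT-ND4 and had 34.7 to 38.5%, and MT-ND6, which overlaps ND5 by 17 bases on the opposite strand, had 20.3 to 24.1%. Their overlap partners had less, with 7.84 to 11.4% for MT-ATP6, 2.9 to 4.0% for MT-ND4 and 4.92 to 6.52% for ND5. The split of reads between overlapping genes is uncertain. MT-ND3, which overlaps no mRNA gene, had 3.66 to 10.4%. The rRNA genes had 0.326 to 1.91%, MT-CYB 0.902 to 2.22% and MT-CO1 4.94 to 5.94%.

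The intron read percentage of some genes differed by treatment in the same direction in every number. MT-ND3, which is flanked by tRNA genes, had 10.4, 9.93 and 5.41% with ConA, against 7.14, 7.87 and 3.82% in untreated cells. With ConA and ALA it had 8.20, 8.09 and 4.32% and with ALA 7.95, 7.0 and 3.66%. It was thus higher with ConA in 3 of 3 numbers, and lower with ConA and ALA than with ConA in 3 of 3, with overlapping groups. For the 2 rRNA genes together the percentage was 1.00, 0.808 and 0.744 with ConA and ALA and 1.64, 1.08 and 0.980 with ConA. It was 1.32, 0.550 and 0.563 with ALA and 1.52, 0.868 and 1.05 in untreated cells, so it was lower with ALA in 3 of 3 numbers in both states. Over the 13 mRNAs it was higher with ALA than without, and with ConA than without, in 3 of 3 numbers in both states, within 5.70 to 6.41% in all libraries.

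**Figure D5:**
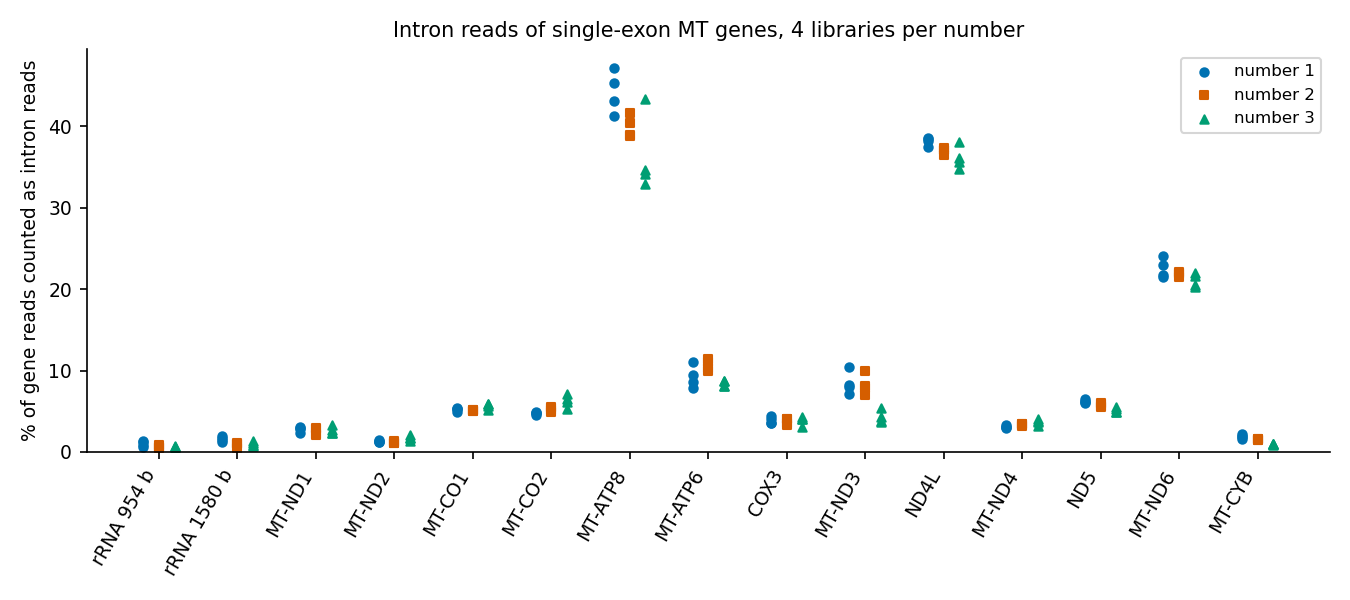
Percentage of each gene's reads that the tables count as intron reads, for the 2 rRNA and 13 mRNA genes in map order, with 4 libraries per number. MT-ATP8, ND4L and MT-ND6, which overlap another mRNA gene, lie highest, at 20.3 to 47.1%.

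Nuclear genes that serve the mitochondrial genome were read beside its own genes. Of 18 listed genes for mitochondrial DNA transcription and replication 15 were tested, and with ConA 4 rose and none fell in the model of 4 group means, in which 9.93% of all genes were called higher. With the block 4 rose and 1 fell, where 21.3% of all genes were called higher, and the 4 of 15 are close to that background. Without the block the median log2 fold change of the list was 0.33, against -0.05 over all genes. TFB2M, the initiation factor that opens the promoter for the mitochondrial RNA polymerase, rose by 1.45 ± 0.18 (edgeR adjusted p = 0.00052). SSBP1, which binds single-stranded mitochondrial DNA, rose by 1.28 ± 0.19 (adjusted p = 0.0013), and RNASEH1, which removes RNA from RNA-DNA hybrids, by 1.41 ± 0.36 (adjusted p = 0.018). With ALA added to ConA none of the list was called, and PRIMPOL, a primase, and TFB1M, an rRNA methyltransferase, stood at 0.37 ± 0.29 and -0.32 ± 0.33 (edgeR adjusted p = 1 for both).

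Of 35 listed genes for mitochondrial RNA processing and stability 31 were tested, and 8 rose with ConA, or 16 with the block, with none lower in either and a median of 0.53. Of all genes 9.93% were called higher without the block and 21.3% with it. LRPPRC, which with SLIRP binds and stabilises mitochondrial mRNAs, had 178, 195 and 114 CPM with ConA and 52.9, 45.7 and 38.8 CPM in untreated cells, without overlap. It rose by 1.82 ± 0.25 (edgeR adjusted p = 0.00076), SLIRP by 1.35 ± 0.29 (adjusted p = 0.0088) and REXO2, an RNA exonuclease, by 1.35 ± 0.23 (adjusted p = 0.0024). With ConA and ALA LRPPRC had 131, 132 and 88.8 CPM, lower than with ConA in 3 of 3 numbers, at -0.47 ± 0.24 (edgeR adjusted p = 1; 0.30 with the block). FASTKD5, which takes part in the cutting of mRNA precursors, stood at 0.36 ± 0.21 in that comparison (adjusted p = 1).

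Among 9 tested regulators of nuclear respiratory genes 1 rose with ConA, near the 9.93% of all genes. It was PPRC1, a coactivator, by 0.86 ± 0.18 (edgeR adjusted p = 0.0061). NRF1, a factor that binds promoters of respiratory genes, stood at -0.39 ± 0.18 (adjusted p = 0.17) and CREB1 at -0.31 ± 0.19 (adjusted p = 0.29). Among nuclear subunits of the complexes none fell in that model, and those that rose were 7 of 28 tested for complex I (the smallest p-values being those of NDUFB6, NDUFB4 and NDUFA9), 5 of 7 for complex III (UQCR10, UQCRC2 and UQCRFS1), 2 of 5 for complex IV (COX5A and COX7A2L) and 6 of 8 for ATP synthase (ATP5MC1, ATP5F1D and ATP5F1A). With the block, in which 21.3% of all genes were called higher, 21 rose and 1 fell for complex I, 7 of 7 rose for complex III, 3 of 5 for complex IV and 7 of 8 for ATP synthase. The lists were not tested against each other. COX5A, a nuclear subunit of the complex whose mitochondrial core is MT-CO1, had 230, 367 and 252 CPM with ConA and 72.8, 125 and 139 CPM in untreated cells, and rose by 1.34 ± 0.30 (edgeR adjusted p = 0.0095). NDUFB6 rose by 1.01 ± 0.23 (edgeR adjusted p = 0.011), UQCR10 by 0.88 ± 0.16 (adjusted p = 0.0035) and ATP5MC1, part of the rotor ring of ATP synthase, by 1.34 ± 0.23 (adjusted p = 0.0023). For ALA against untreated cells and for ALA added to ConA, none of the members of these 7 lists was called in either model. For ALA added to ConA the 2 members of smallest p in the regulator and subunit lists lay between -0.27 for NDUFS8 and ATP5MC1 and 0.24 for CREB1 on the log2 scale (edgeR adjusted p = 1). Their fold changes and those of the mitochondrial genes were not tested against each other.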

How the data were processed

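Total exon reads per gene are counts as deposited by the authors, per the file headers, with no normalization, and the TPM values are the authors' own, per the file headers. The genome build CanFam3.1 and bcl2fastq come from the submitters' processing notes, while the sources used here name no aligner, counting tool or strand setting. Coordinates and biotypes are those of the deposited tables. Members, gene lists and tests were chosen with earlier results of these data known. Mitochondrial genes without a symbol are given by identifier, and no sequence was used.

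The test was edgeR (4.0.16, under R 4.3.3; TMM, filterByExpr, robust quasi-likelihood F-test, 4 group means over 12 libraries), with Benjamini-Hochberg adjustment over all 13358 genes kept and a threshold of 0.05. CPM are on TMM-scaled library sizes. Same-numbered libraries correlated at 0.376 to 0.748 in their deviations from group means (18 pairs) and other pairs at -0.498 to 0.206, so the title numbers were taken to pair the libraries, and the model with the number as a block is given beside the tests of mitochondrial genes and beside list counts. The named nuclear genes are given without it, and it moved none of their ConA calls except COX4I1, which was called with it alone (adjusted p = 0.043 against 0.2). The biological coefficient of variation was 0.422 without the block and 0.217 with it. Shares within mitochondrial reads have no test. The script was tested on simulated data. Alternatives were DESeq2 1.42.0, limma-voom (limma 3.58.1), other scalings and filters, unique exon reads, total gene reads, and libraries or numbers left out. The block without TMM, and the block with libraries or numbers left out, were added after seeing the data.

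Fold changes were named for the 3 mitochondrial genes of smallest unadjusted p per comparison, and for the 3 (ConA against untreated) and 2 (ALA added to ConA) members of smallest p of each nuclear list. Other members named by value were chosen after their values were seen. Counting error at 0 reads was taken as 3 reads. Marker genes that the tables do not name, such as CD14 and TRAC, were not analysed here. Figures and summaries used Python 3.11.15.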

Additional observations from a re-analysis of the deposited data

Results flagged for a closer look

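Of 33 measures of the mitochondrial reads, 4 showed opposite directions of the same contrast in all 3 numbers. The share of exon reads on the 2 rRNA genes, which is not among the 33, did so too. It differed by 0.0161, 0.141 and 0.202 percentage points for ALA minus untreated. For ConA+ALA minus ConA it differed by -0.00691, -0.299 and -0.0664. The difference between the directions was not tested for any of these shares. MT rRNA reads per 100 MT mRNA reads differed by 0.973 for ALA minus untreated and by -0.389 for ConA+ALA minus ConA. Read the other way, they differed by 0.488 for ConA minus untreated and by -0.874 for ConA+ALA minus ALA. Reads of the 1580-base rRNA gene ENSCAFG00000022711 per 1000 MT mRNA reads did the same, with 5.40 for ALA minus untreated, -4.60 for ConA+ALA minus ConA, 6.42 for ConA minus untreated and -3.59 for ConA+ALA minus ALA. For the level of that gene the interaction was tested, and with the number as a block it had an edgeR adjusted p of 0.46. The MT-ND4 share of MT mRNA reads differed by -0.0964 percentage points for ALA minus untreated and 0.131 for ConA+ALA minus ConA. The percentage of MT-ND6 gene reads counted as intron reads differed by 0.891 for ConA minus untreated and -0.758 for ConA+ALA minus ALA. Each contrast here shares libraries with another.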

How the results depend on the processing

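Of 984 recomputed values 837 kept the direction and side of the threshold of the value reported. The number as a block raised 0 called mitochondrial genes to 15 for ConA against untreated cells and to 4 for ConA with ALA against ALA. Scaling from genes outside MT left these at 15 and 4, and no TMM scaling gave 9 and 4. Left out of the blocked model for ConA against untreated cells, numbers 1, 2 and 3 gave 15, 8 and 15 calls. With ConA+ALA, ConA, ALA or untreated 1 left out there were 13, 15, 15 and 15, of number 2 there were 13, 9, 15 and 6, and of number 3 there were 14, 14, 15 and 9. For ConA with ALA against ALA the blocked model gave 0, 4 and 12 calls without numbers 1, 2 and 3. In the same order of libraries it gave 1, 4, 0 and 4 for number 1, 2, 11, 1 and 4 for number 2, and 4, 5, 12 and 4 for number 3. The block changed no call of a mitochondrial gene in the other comparisons of treatments. Without the block, leave-one-out fits for ConA against untreated cells called 0 to 11 (11 without number 1), and those between numbers 0 to 16 (0 without number 1). For fits with libraries or numbers left out, no share of all genes is given beside the counts.

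For ALA against untreated cells MT-ATP8 ranged from -0.49 to 1.05 when libraries were left out, and stood at -0.24 without number 3 and -0.20 without ALA 3 in the blocked model. For ALA added to ConA, leave-one-out ranges without the block were -1.05 to 0.15 for MT-ND2, -1.04 to 0.24 for MT-ND1 and -1.14 to 0.16 for the 1580-base rRNA gene. Each was highest without ConA 2, where the blocked model gave -0.12 for MT-ND2 and -0.08 for MT-ND1. For the interaction the ranges without the block were -1.20 to 0.00 for MT-ND2 and -1.19 to 0.08 for MT-ND1. For ALA minus untreated, leaving out a number gave mean differences of -0.644 to 1.5 percentage points in the mitochondrial share and -0.628 to 0.775 in the MT-CO1 share. Where no cause is given, the cause was not tested. Read counts were low only for the tRNA genes, with 8 to 51 reads per library, and the part of depth in this was not tested.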
